A study of Homo sapiens with 6 samples.

Results

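The histone genes of A549 cells were examined with and without knockdown of DDX17, a DEAD-box RNA helicase. The members were taken by symbol from the deposited table of reads per gene. They are the protein-coding rows beginning with HIST1H to HIST4H, H1F, H2AF or H3F3 and holding at least 1 read in total. This gave 72 of the 29476 genes in the table, of which 17070 are protein-coding. The 72 genes fall into 59 clustered HIST genes and 13 variant histone genes. A549 is an established human lung adenocarcinoma line. All 6 libraries came from A549 cells transfected with an siRNA by lipofection, 3 with a nontargeting siRNA (siCtrl) and 3 with an siRNA against DDX17 (siDDX17), and no other genetic change is given. The genotype label of the control libraries reads control plasmid, while their titles and the methods give the siRNA. The methods give a harvest at 48 h after transfection for RT-qPCR, and a separate harvest time of the sequenced cultures was not given in the sources used here. Each arm used 1 siRNA sequence, so the effects of that siRNA and of the loss of DDX17 cannot be told apart. The methods call the 3 libraries of each arm biological replicates.

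Histones are the proteins around which DNA is wound. H2A, H2B, H3 and H4 form the core of the nucleosome, and H1 binds the linker DNA between nucleosomes. Most of the clustered genes are replication-dependent: they are transcribed in S phase, have no introns, and give mRNAs that end in a conserved stem-loop, bound by SLBP, in place of a poly(A) tail. Most of the variant genes are expressed outside S phase as well and give ordinary polyadenylated mRNAs. The RNA was selected by poly(A), so a replication-dependent histone mRNA is counted mainly where it carries a tail or where RNA without a tail is carried into the library. The read counts of the clustered genes are therefore no measure of their total mRNA.

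The sequences that separate the subgroups are shown first, since the stem-loop decides whether an mRNA needs a tail. The histone stem-loop was searched on the sense strand in the 150 bases after the stop codon of each canonical transcript (GENCODE 44, GRCh38). It was present in 59 of 59 clustered genes, 22 to 67 bases after the stop codon with a median of 35, and in 1 of the 13 variant genes, H2AFX. Of all 19924 coding genes searched, 73 held it, or 0.366%. In all, 10 distinct stem-loop sequences occurred among the clustered genes. The 5 clustered members with the largest falls among those called are printed here with the 4 most abundant clustered members and with H2AFX. The 16 bases of the stem-loop are in capitals, and the 5 bases on each side are in lower case, 5′ to 3′.
HIST1H1E: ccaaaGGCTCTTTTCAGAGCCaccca
HIST2H2BF: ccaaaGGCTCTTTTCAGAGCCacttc
HIST1H4B: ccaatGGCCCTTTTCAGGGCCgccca
HIST1H3B: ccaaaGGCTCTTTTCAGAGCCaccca
HIST1H2BL: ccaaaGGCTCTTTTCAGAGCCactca
HIST1H1C: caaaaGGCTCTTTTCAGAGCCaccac
HIST1H2BK: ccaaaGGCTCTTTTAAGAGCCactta
HIST1H2AC: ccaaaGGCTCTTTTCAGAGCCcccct
HIST1H2BD: ccaaaGGCTCTTTTAAGAGCCacgca
H2AFX: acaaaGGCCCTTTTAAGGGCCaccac
The form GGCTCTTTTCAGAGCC was the commonest, in 33 of the 59 clustered genes. The form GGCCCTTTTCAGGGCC was found in 8 genes and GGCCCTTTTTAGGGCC in 4, and all of these were H4 genes. The sequences of HIST1H1E and HIST1H3B were identical over the stem-loop and its flanks, although the genes belong to different histone classes. The stem-loop of HIST1H1E lies at chr6:26157095-26157110 on the plus strand of GRCh38, and that of HIST1H1C at chr6:26055744-26055759 on the minus strand.

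The clustered genes differ in what the annotation places past the stem-loop. In 18 of them, a GENCODE 44 transcript or the RefSeq gene span ends at least 100 genomic bases beyond it, and in 41 none does. This is called an annotated extension here. The distance includes introns and reaches 29196 bases for HIST2H2BF. Whether the transcript keeps the stem-loop or splices it out was not checked. Such an extension can hold a poly(A) signal. HIST1H2BK, HIST1H2AC, HIST1H2BD and HIST2H2BF have one. HIST1H1E, HIST1H3B, HIST1H2BL, HIST1H4B and HIST1H1C do not. HIST1H1C and HIST1H2BD carry the poly(A) signal AATAAA 12 bases after the stem-loop. The bases that follow the stem-loop, up to and with the signal in capitals, are shown for both.
HIST1H1C: accactgatctcAATAAA
HIST1H2BD: acgcatgttttcAATAAA
A match to these letters is a description of the sequence and not evidence that the site is used. The split by extension was made after the values were seen.

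The depth of the libraries was between 30658136 and 39182371 counted reads. DDX17 was measured at 177, 184 and 206 CPM (counts scaled by TMM to a common library size) in the siCtrl libraries, whereas the siDDX17 libraries gave 32.1, 30.8 and 30.4 CPM. The siDDX17 libraries thus held DDX17 mRNA at 0.165 of the siCtrl level, with a log2 fold change of -2.60 ± 0.07 (SE, edgeR quasi-likelihood test, adjusted p = 5.89e-11). Of 10 markers of A549 epithelium, 9 were at 1 FPKM or above (fragments per kilobase scaled to library size, the length-normalized unit of the authors). EPCAM was at 0.757 FPKM. The leukocyte marker PTPRC was at 0.00167 FPKM while CD14 was at 13.5, and the 7 endothelial and fibroblast markers were all at or below 0.412 FPKM.

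Of the 72 histone genes, 39 passed the expression filter of edgeR, 29 clustered and 10 variant. Of 15615 genes tested in the whole table, 48.8% passed an adjusted p of 0.05, 24.5% as higher and 24.3% as lower in siDDX17. Among the 10 tested variant genes, 2 were higher, 6 lower and 2 did not pass. Among the 29 tested clustered genes, 3 were higher, 9 lower and 17 did not pass, so 41.4% were called, a share near that of all genes. The median log2 fold change was -0.50 over the tested variant genes and -0.45 over the tested clustered genes, against 0.01 over all tested genes. With an added limit of an absolute log2 fold change over 1, which 7.57% of all tested genes passed (4.65% as higher and 2.92% as lower), 1 variant gene was higher and 2 were lower, and 0 clustered genes were higher and 5 lower in edgeR. At an unadjusted p of 0.05 without the fold limit, 3 clustered genes were higher and 12 lower. The CPM ranges of the groups did not overlap for 9 of the 10 variant genes and for 15 of the 29 clustered genes, against 56.5% of all tested genes. A member had to reach the count minimum of the filter to be tested, so these counts do not describe the 33 members that did not. A low-count member could reach it through the libraries of a single group, the group where it was high.

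**Figure D1:**
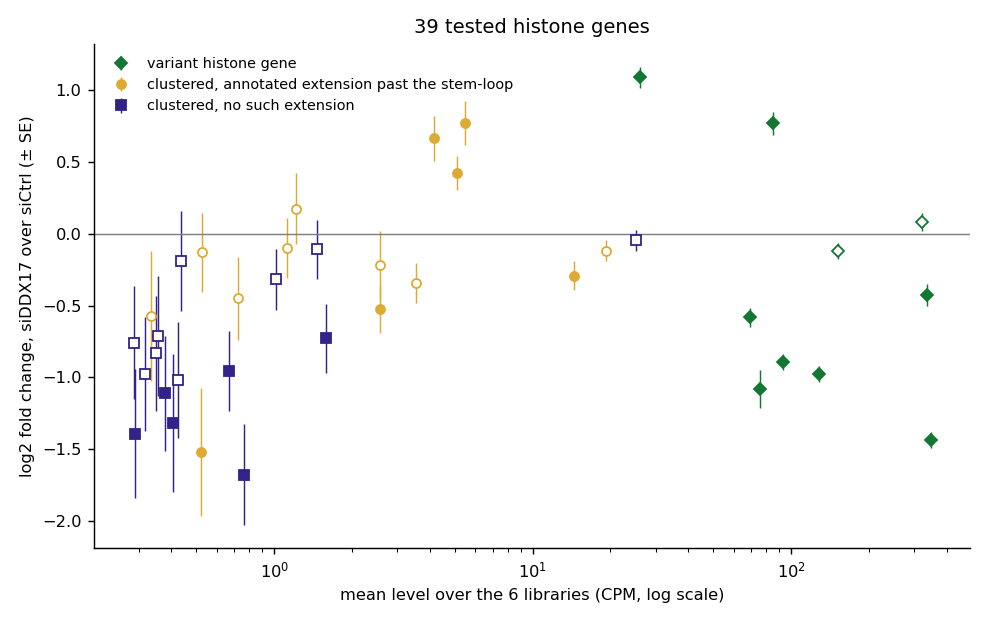
Log2 fold change (siDDX17 over siCtrl, with its SE) of the 39 tested histone genes against their mean level over the 6 libraries (CPM, log scale). Filled symbols passed an adjusted p of 0.05 and open symbols did not. The variant genes lie at the right with small errors, while most clustered genes without an annotated extension lie at the lower left with large errors, and HIST1H1C, at 25.5 CPM in siCtrl, lies near 0 with a small error. All 15 tested clustered genes without an annotated extension are below 0, and a low-count gene could pass the filter through a single group.

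The variant genes made up most of the histone reads. They held 344120 reads over the 6 libraries, and the 59 clustered genes held 21031. The 13 variant genes summed to 1863, 1945 and 1940 CPM in siCtrl, and in siDDX17 to 1324, 1359 and 1352 CPM. All siDDX17 libraries were thus below all siCtrl libraries, and the mean fell from 1916 ± 46.0 to 1345 ± 18.8 CPM (SD, n = 3), a ratio of 0.702. In bulk RNA, fewer cells expressing a gene and less RNA per cell cannot be told apart.

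Among the tested variant genes, the estimate furthest from 0 was that of an H3.3 gene. H3F3A and H3F3B encode the same replacement histone, H3.3, which is deposited outside replication. H3F3B was measured at 495, 515 and 510 CPM in siCtrl and at 191, 184 and 187 CPM in siDDX17. The groups were far apart and each was tight. H3F3B thus fell by 1.44 ± 0.05 on the log2 scale (edgeR, adjusted p = 6.48e-10), to 0.370 of its siCtrl level. H3F3A was measured at 310, 327 and 297 CPM in siCtrl and at 305, 331 and 350 CPM in siDDX17, and the ranges overlapped. Its log2 fold change was 0.08 ± 0.06 (edgeR, adjusted p = 0.329), and it passed the test, as higher, when the reads were scaled by library size alone, with a log2 fold change of 0.20. The coding sequence of H3F3A has copies elsewhere in the genome: none of its 150-base windows is unique among the histone family loci, whereas all those of H3F3B are. The authors kept uniquely mapped reads, so the count of H3F3A is uncertain.

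Per length, H3F3B contributed 63.2%, 62.8% and 64.8% of the summed FPKM of the pair in siCtrl, and 40.3%, 37.3% and 36.4% in siDDX17. Per length, H3F3B thus gave more than H3F3A in each siCtrl library and less in each siDDX17 library. The summed FPKM of the pair was 249 ± 2.31 in siCtrl and 169 ± 7.65 in siDDX17 (SD, n = 3). For both the share and the sum, the groups did not overlap, and the exact two-sided permutation p of 0.1 is the smallest that 3 against 3 libraries allow. Both genes are given as measured mRNA only, and H3.3 protein was not analysed here.

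Both linker histone variants fell. H1F0 encodes H1.0, the linker histone that accumulates in differentiated and resting cells. It was measured at 133, 87.2 and 87.9 CPM in siCtrl and at 47.1, 51.9 and 46.7 CPM in siDDX17. The siCtrl 1 library stood above the others, and all siCtrl values were above all siDDX17 values. H1F0 fell by 1.08 ± 0.13 on the log2 scale (edgeR, adjusted p = 1.61e-05), and by 0.86 without siCtrl 1. H1FX, which encodes the widely expressed linker histone H1.10, was measured at 174, 169 and 169 CPM in siCtrl and at 84.0, 91.4 and 84.6 CPM in siDDX17. It fell by 0.98 ± 0.06 on the log2 scale (edgeR, adjusted p = 2.28e-08). H1FX-AS1, annotated on the opposite strand next to H1FX, fell by 1.31 ± 0.15 on the log2 scale, from 3.67 to 1.48 CPM (edgeR, adjusted p = 7.84e-06). The use of strand in counting was not given in the sources used here, so reads of H1FX and H1FX-AS1 may not be fully separated where they overlap.

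The H2A.Z genes also fell, by different amounts. H2A.Z marks promoters and the borders of open chromatin, and it is encoded by H2AFZ and H2AFV. H2AFZ was measured at 336, 390 and 425 CPM in siCtrl and at 296, 280 and 281 CPM in siDDX17. The siCtrl libraries spread widely, but none of them came down to the siDDX17 range. H2AFZ fell by 0.43 ± 0.08 on the log2 scale (edgeR, adjusted p = 4.32e-04). H2AFV was measured at 119, 120 and 123 CPM in siCtrl and at 63.7, 66.7 and 64.1 CPM in siDDX17. It fell by 0.89 ± 0.05 on the log2 scale (edgeR, adjusted p = 3.32e-08). Per length, H2AFV was the minor gene, with 6.12% ± 0.591 of the summed FPKM of the pair in siCtrl and 4.48% ± 0.217 in siDDX17 (SD, n = 3).

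H2AFX, the variant that is phosphorylated at DNA breaks, was measured at 75.8, 89.7 and 84.1 CPM in siCtrl and at 56.0, 55.5 and 55.2 CPM in siDDX17. It fell by 0.58 ± 0.07 on the log2 scale (edgeR, adjusted p = 8.34e-06). It is the variant gene that carries the stem-loop shown above, and its annotated transcript runs 1024 bases beyond it. Any H2AFX mRNA that ended at the stem-loop would be largely missed by poly(A) selection, so its count may cover only part of its mRNA.

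Among the genes that rose, H2AFY2 encodes macroH2A2, a variant with a large domain outside the nucleosome, found in silent chromatin. H2AFY2 was measured at 16.5, 15.9 and 17.7 CPM in siCtrl and at 35.0, 37.6 and 33.9 CPM in siDDX17. It rose 2.12-fold, by a log2 fold change of 1.09 ± 0.07 (edgeR, adjusted p = 8.74e-08). Its paralog H2AFY, which encodes macroH2A1, was measured at 150, 165 and 159 CPM in siCtrl and at 143, 147 and 145 CPM in siDDX17. The ranges did not overlap, but the log2 fold change of -0.12 ± 0.06 did not pass (edgeR, adjusted p = 0.0833), though it did without siCtrl 1 (adjusted p = 0.00356), and the direction turned under scaling by library size alone and in the FPKM values. Per length, the share of H2AFY2 in the summed FPKM of the pair was 13.9% ± 0.935 in siCtrl and 27.2% ± 0.862 in siDDX17. H2AFJ, an H2A variant whose gene lies outside the main clusters, was measured at 54.3, 67.9 and 67.3 CPM in siCtrl and at 103, 114 and 105 CPM in siDDX17. It rose 1.70-fold, by a log2 fold change of 0.77 ± 0.08 (edgeR, adjusted p = 4.80e-06).

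**Figure D2:**
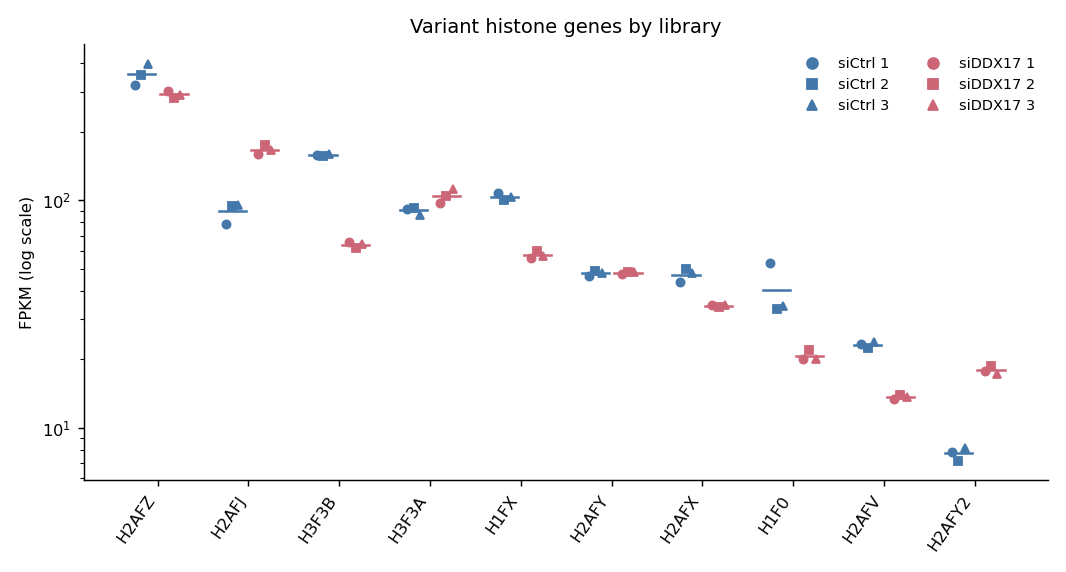
FPKM (log scale) of the 10 tested variant histone genes in each library, ordered by mean level, with a line at each group mean. H3F3B lies above H3F3A in siCtrl and below it in siDDX17, H2AFJ and H2AFY2 rise, and H3F3A is the one gene of the H3.3 pair whose groups lie close together.

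By length-normalized level, the order of the tested variant genes in siCtrl was H2AFZ at 358 FPKM, H3F3B at 158, H1FX at 104, H3F3A at 90.6, H2AFJ at 89.7, H2AFY at 47.9, H2AFX at 47.1, H1F0 at 40.3, H2AFV at 23.2 and H2AFY2 at 7.72. H3F3A and H2AFJ overlapped in this order, as did H2AFY and H2AFX, and H2AFX and H1F0, so neighbours in it do not all differ beyond their spread. In siDDX17, H2AFJ came after H2AFZ and ahead of H3F3A, and H2AFY2 came ahead of H2AFV. The variant genes not tested were H2AFB1 and H2AFB3, which encode H2A.B of the testis and whose coding sequences are shared between copies, and H3F3C, which encodes H3.5.

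The clustered genes were sparse. They summed to 104, 107 and 98.0 CPM in siCtrl, and in siDDX17 to 92.6, 96.5 and 95.5 CPM, or 103 ± 4.57 against 94.9 ± 2.02 (SD, n = 3), a fall of 7.97%. The groups did not overlap, but the fall was gone when the reads were scaled by library size alone. The median clustered gene held 60 reads over the 6 libraries together, and 10 held fewer than 10 reads. HIST1H1C alone held 25.4% of the clustered reads, the 3 most abundant genes held 59.5% and the 6 most abundant held 74.6%. The sum is therefore mostly a measure of a few genes.

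HIST1H1C, which encodes the linker histone H1.2, was measured at 23.3, 26.4 and 26.8 CPM in siCtrl and at 24.9, 25.5 and 23.7 CPM in siDDX17. The groups overlapped, and the log2 fold change of -0.05 ± 0.07 did not pass (edgeR, adjusted p = 0.631). HIST1H2BK, an H2B gene with an annotated extension, was measured at 18.6, 20.2 and 21.3 CPM in siCtrl and at 18.5, 18.5 and 18.4 CPM in siDDX17. Its log2 fold change of -0.12 ± 0.07 did not pass either (edgeR, adjusted p = 0.209), but passed without siCtrl 1 (adjusted p = 0.0457). Both directions turned under scaling by library size alone. HIST1H2AC, an H2A gene, was measured at 18.5, 15.0 and 14.3 CPM in siCtrl and at 12.3, 13.5 and 13.2 CPM in siDDX17. The highest value was that of siCtrl 1. HIST1H2AC fell by 0.29 ± 0.10 on the log2 scale (edgeR, adjusted p = 0.0280), and without siCtrl 1 the fall of 0.18 did not pass (adjusted p = 0.0814). The call was also lost without siDDX17 1, 2 or 3, with adjusted p of 0.104, 0.0560 and 0.0672.

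The 3 clustered genes that rose all have an annotated extension. HIST1H2BD, an H2B gene, was measured at 3.28, 5.28 and 3.63 CPM in siCtrl and at 6.93, 6.61 and 7.06 CPM in siDDX17. It rose 1.71-fold, by a log2 fold change of 0.77 ± 0.15 (edgeR, adjusted p = 0.0010). HIST1H4H, an H4 gene, was measured at 4.02, 3.01 and 2.64 CPM in siCtrl and at 5.50, 4.91 and 4.88 CPM in siDDX17, and rose by a log2 fold change of 0.66 ± 0.15 (edgeR, adjusted p = 0.00303). HIST3H2A, an H2A gene on chromosome 1 apart from the HIST2 genes, was measured at 4.84, 4.20 and 4.08 CPM in siCtrl. In siDDX17 it was at 5.81, 6.01 and 5.76 CPM, and rose by a log2 fold change of 0.42 ± 0.12 (edgeR, adjusted p = 0.00841). In each of the 3 genes, all siDDX17 values were above all siCtrl values, and each call held under every library left out in turn.

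The 5 clustered genes past the fold limit were all low in counts. HIST1H1E, which encodes the linker histone H1.4, held 40, 39 and 36 reads in siCtrl and 15, 5 and 21 reads in siDDX17. It fell by 1.68 ± 0.35 on the log2 scale (edgeR, adjusted p = 0.00149), and the call held under every library left out in turn. HIST2H2BF, an H2B gene, held 39, 22 and 15 reads in siCtrl and 5, 14 and 11 reads in siDDX17. It fell by 1.52 ± 0.44 on the log2 scale (edgeR, adjusted p = 0.0118), and by 1.19 without siDDX17 1 (adjusted p = 0.0576). HIST1H4B, an H4 gene, held 13, 14 and 15 reads in siCtrl and 6, 2 and 10 reads in siDDX17, and fell by 1.39 ± 0.45 on the log2 scale (edgeR, adjusted p = 0.0199). In these 3 genes no siDDX17 library reached the siCtrl range. HIST1H3B, an H3.1 gene, held 24, 20 and 13 reads in siCtrl and 5, 4 and 17 reads in siDDX17, and the groups overlapped through siDDX17 3. It fell by 1.32 ± 0.48 on the log2 scale (edgeR, adjusted p = 0.0370). HIST1H2BL, an H2B gene, held 24, 10 and 18 reads in siCtrl and 6, 13 and 8 reads in siDDX17, and the groups overlapped here too. It fell by 1.11 ± 0.40 on the log2 scale (edgeR, adjusted p = 0.0345). The call of HIST1H4B was lost without siCtrl 2, siDDX17 1 or siDDX17 2, with edgeR adjusted p up to 0.0803. That of HIST1H3B was lost without siCtrl 1, siCtrl 2, siDDX17 1 or siDDX17 2, with adjusted p up to 0.153, and that of HIST1H2BL without siCtrl 1, siCtrl 3, siDDX17 1 or siDDX17 3, with adjusted p up to 0.140. DESeq2 also lost these 3 calls, with adjusted p of 0.0782, 0.0658 and 0.122, and kept 5 of the 9 lower clustered calls.

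The other clustered genes among the 12 most abundant were HIST1H3H, HIST2H2AC, HIST2H2BE, HIST2H4B, HIST1H2AG and HIST1H2BJ. HIST1H3H, an H3 gene, held 116, 88 and 98 reads in siCtrl and 71, 77 and 91 reads in siDDX17, and fell by 0.53 ± 0.16 on the log2 scale (edgeR, adjusted p = 0.0170). HIST2H2AC, an H2A gene, held 59, 71 and 65 reads in siCtrl and 50, 29 and 56 reads in siDDX17, and fell by 0.73 ± 0.24 on the log2 scale (edgeR, adjusted p = 0.0217). For both, the CPM ranges of the groups did not overlap. The call of HIST1H3H was lost without siDDX17 1 (adjusted p = 0.0761), and that of HIST2H2AC without siCtrl 2 or siDDX17 2 (adjusted p = 0.0962 and 0.0980), in the edgeR fits. HIST2H2BE, HIST2H4B, HIST1H2AG and HIST1H2BJ did not pass, with log2 fold changes of -0.34, -0.22, -0.11 and 0.17, and HIST2H2BE passed without siCtrl 3 (edgeR, adjusted p = 0.0207). HIST2H4B is one of the genes whose coding windows are all shared with another locus, so its count is uncertain. HIST1H4J and HIST1H4K have the same limit. The remaining gene called lower, HIST1H4C, lies outside the rule for named genes and is given because the count is small: it held 28, 30 and 29 reads in siCtrl and 18, 20 and 13 reads in siDDX17, and fell by 0.96 ± 0.28 on the log2 scale (edgeR, adjusted p = 0.0124).

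**Figure D3:**
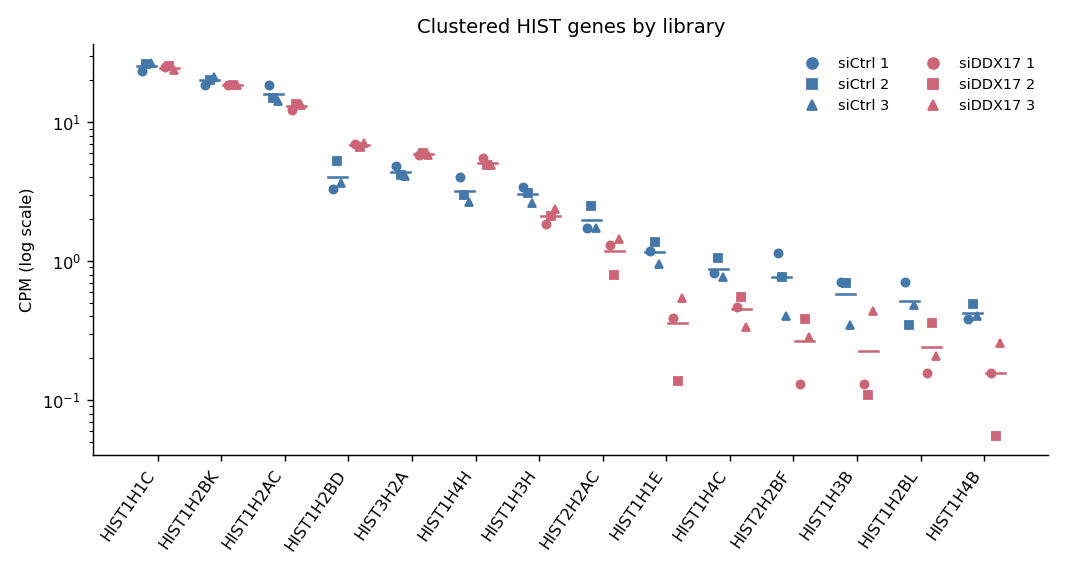
CPM (log scale) in each library of the 12 clustered HIST genes that passed the test and of HIST1H1C and HIST1H2BK, ordered by mean level, with a line at each group mean. The 3 genes that rose lie between 2 and 10 CPM, and below 1 CPM the siDDX17 libraries spread over much of the range.

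The clustered genes were also read by annotated extension. Of the 18 genes with an extension, 14 were tested, and 3 of these were higher and 3 lower, with a median log2 fold change of -0.18, so 42.9% were called, near the 48.8% of all tested genes. Of the 41 genes without one, 15 were tested, and by edgeR 0 were higher and 6 lower, with a median of -0.83 and all 15 estimates below 0. At an unadjusted p of 0.05, 0 were higher and 8 lower. A low-count gene could pass the filter through the reads of a single group, the group where it was high. The signs of these 15 estimates are therefore not independent of the filter. Without the filter, edgeR tested all 41, with 0 higher, 9 lower and 4 estimates above 0. DESeq2 was run on all 41, and 0 were higher and 3 lower at an adjusted p of 0.05. Its default filter can leave genes with few reads without an adjusted p. The called share, 6 of 15, was also near that of all tested genes. In edgeR the 6 lower became 2 without siCtrl 2, 3 without siDDX17 1, 3 with scaling by library size alone (2 estimates above 0) and 2 with at least 10 counts in every library (6 tested, median -0.24). The 3 lower genes with an extension became 0 without siDDX17 1, with 2 at an unadjusted p of 0.05. The split was made after the values were seen and was not tested. Summed over the genes with an extension, the mean was 62.8 ± 3.69 CPM for siCtrl against 61.5 ± 2.03 CPM for siDDX17 (SD, n = 3), and the groups overlapped. Over all 41 genes without an extension, the mean was 40.3 ± 3.76 CPM for siCtrl against 33.4 ± 0.135 CPM for siDDX17, a ratio of 0.828 with no overlap. HIST1H1C was then left out of this sum because its change did not pass. Leaving out a gene for its own result lowers the ratio by that choice, so the lower ratio is a description and no separate finding. Summed over the 40 genes without an extension other than HIST1H1C, the siCtrl libraries gave 14.4, 18.2 and 11.9 CPM, against 8.48, 7.76 and 9.84 CPM for siDDX17, a ratio of 0.586 with no overlap. Leaving siCtrl 1 out of that sum gave a ratio of 0.577.

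Genes without a tail depend on RNA that is carried through poly(A) selection, so other RNAs without a tail were summed beside them. Over 709 genes of small nuclear, small nucleolar, small Cajal body and other small noncoding RNAs, the siCtrl libraries gave 157, 222 and 128 CPM, against 70.8, 68.0 and 128 CPM for siDDX17, a ratio of 0.526 with overlapping groups. In this sum and that of the 40 genes, siCtrl 2 was highest, siCtrl 1 came next and siCtrl 3 was lowest among the controls. Among the knockdowns, siDDX17 3 was highest and siDDX17 2 lowest in both. With HIST1H1C kept in, the 41 genes gave 37.7, 44.6 and 38.7 CPM in siCtrl, against 33.3, 33.2 and 33.5 CPM in siDDX17. There siCtrl 1 was the lowest control, so the order of the controls no longer matched that of the 709 genes. Without the nucleolar and Cajal body RNAs, most of which lie in introns of other genes, 478 genes gave 123, 178 and 95.1 CPM in siCtrl. In siDDX17 they gave 39.8, 38.0 and 89.6 CPM, with no overlap. RN7SK, an RNA polymerase III transcript, was measured at 12.6, 17.4 and 8.01 CPM in siCtrl and at 2.85, 2.55 and 8.93 CPM in siDDX17, and was chosen after the values were seen. The mitochondrial rRNAs, planned as a separate measure, summed to 21328, 30353 and 26264 CPM in siCtrl. In siDDX17 they summed to 23401, 21119 and 20129 CPM, a ratio of 0.829 with overlapping groups. Within each group, their order of libraries differed from that of the 709 genes. In siCtrl 3 and siDDX17 3 the 709 genes both summed to 128 CPM. The 40 clustered genes without an extension, apart from HIST1H1C, were at 11.9 and 9.84 CPM there. These are single libraries, chosen by their values. The part of carried-through RNA in the falls of the clustered genes was not tested.

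**Figure D4:**
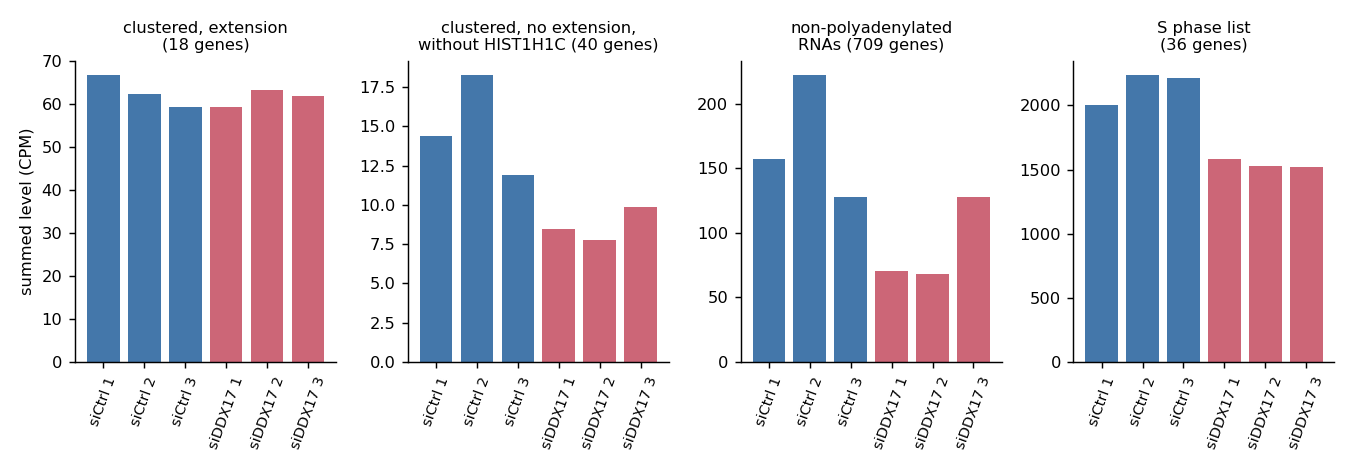
Summed level (CPM, bars from 0) in each library of 4 groups of genes: clustered genes with an annotated extension, clustered genes without one and without HIST1H1C, RNAs without a poly(A) tail, and the S phase list. The first group is level across libraries, and the S phase list is lower in all 3 siDDX17 libraries. The second and the third follow the same order of libraries within each group. HIST1H1C was left out after its value was seen, and with it the second has another order in siCtrl.

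By histone class, the 10 clustered H3 genes summed to 5.56 ± 1.03 CPM for siCtrl against 3.66 ± 0.564 CPM for siDDX17 (SD, n = 3), a ratio of 0.658 with no overlap. The closest libraries were siCtrl 3 and siDDX17 3, and as a share of all reads without TMM scaling the groups overlapped. The other classes overlapped between groups. The ratios were 0.924 for H1, 0.876 for H2A, 0.973 for H2B and 0.989 for H4. The 5 H1 genes summed to 27.3 CPM in siCtrl, of which HIST1H1C made up most, while HIST1H1D held 16, 11 and 15 reads in siCtrl and 11, 9 and 4 reads in siDDX17.

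The 30 clustered genes that were not tested held at most 20 reads in any library. Their reads summed to 140, 172 and 114 in siCtrl and to 101, 96 and 111 in siDDX17, and in CPM the groups did not overlap, with a ratio of 0.617. As a share of all reads without TMM scaling, siCtrl 3 lay below siDDX17 3, so the groups overlapped. Without a low-count filter, edgeR tested all 59 clustered genes and called 12 lower, with the same 9 among them, and 3 higher. The 10 histone pseudogenes in the table held 1 to 48 reads each and were not tested.

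Promoter motifs, which the rule did not use, were searched next. In the window from 250 bases before to 50 bases after the start in RefSeq, promoters were found for 65 of the 72 members, 54 clustered and 11 variant. Motifs were searched on both strands. The TATA box TATAAA was present in 35 of the 54 clustered promoters, against 9.63% of 15842 promoters of coding genes, and the CCAAT box CCAAT in 45 of the 54, against 36.4%. The TATA box was present in 4 of the 11 variant promoters, and the CCAAT box in 8 of these 11. CCAAT was present in 5 of 5 H1, 13 of 13 H2A, 17 of 17 H2B and 8 of 8 H3 promoters, but in 2 of 11 H4 promoters. The octamer ATTTGCAT, known from H2B promoters, was present in 13 of 17 H2B and 9 of 13 H2A promoters, against 1.70% of all. The H1 box AAACACA was present in 5 of 5 clustered H1 promoters, against 4.24% of all. Many H2A and H2B genes start head to head within the same window, so the octamer of an H2B gene is often counted for its H2A neighbour too.

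These head-to-head neighbours share a promoter region but not a read count. There were 10 pairs of members with start sites at most 500 bases apart, and in them the larger total was 1.09 to 85.5 times the smaller, with a median of 2.45. The start site was taken as the end of the annotated gene span. For HIST1H3J, paired with HIST1H2BO, that end lies within HIST1H2AM and far from the HIST1H3J coding sequence. That pair may thus not be a true head-to-head pair, and the count and the median include it. HIST1H2BK and HIST1H2AH start 251 bases apart and held 4104 and 48 reads. HIST1H2BC and HIST1H2AC start 219 bases apart and held 155 and 3068 reads. Both genes were tested in 5 pairs, and the log2 fold changes had the same sign in 3 of them. The pair of HIST3H2A and HIST3H2BB differed in sign, at 0.42 and -0.13, and the second estimate did not pass.

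The genes that act on histone mRNA were read beside the histone genes. On a list of 32 genes of histone transcription and 3′ end formation, all tested, 4 were higher and 15 lower, with a median log2 fold change of -0.20. This was 59.4% called, against 48.8% of all tested genes. SLBP, which binds the stem-loop and carries the mRNA through processing and translation, fell by 0.45 ± 0.07 on the log2 scale, from 48.5 to 35.4 CPM (edgeR, adjusted p = 1.94e-04). NPAT, the coactivator of the replication-dependent genes, was at 3.43 CPM in siCtrl and 3.16 in siDDX17 and did not pass (edgeR, adjusted p = 0.591). The kinase that activates NPAT is cyclin E with CDK2. CCNE2, CDK2 and CCNE1 fell by 1.08, 0.93 and 0.80 on the log2 scale, each below all its siCtrl values. The genes that were higher were CPSF3, CPSF2, ZNF473 and CPSF1. CPSF3 is the endonuclease that cleaves histone pre-mRNA as well as polyadenylated pre-mRNA, and it rose by 0.41 on the log2 scale. With scaling by library size alone, 9 genes of this list were higher and 11 lower.

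On a list of 33 histone chaperones, importers and exchange factors, all tested, 6 were higher and 13 lower, with a median log2 fold change of -0.11. This was 57.6% called, against 48.8% of all tested genes. ASF1B, the H3-H4 chaperone of proliferating cells, fell by 1.26 ± 0.08 on the log2 scale, from 22.4 to 9.38 CPM (edgeR, adjusted p = 8.03e-08), whereas its paralog ASF1A was at 28.4 and 29.6 CPM. HJURP, the chaperone of the centromeric H3 variant CENP-A, fell by 0.85 ± 0.06 on the log2 scale (edgeR, adjusted p = 2.36e-07). CENPA itself, which the symbol rule does not take, fell by 0.32 ± 0.09 on the log2 scale, from 13.9 to 11.1 CPM (edgeR, adjusted p = 0.00746). UBN1, a subunit of the HIRA complex that deposits H3.3, rose by a log2 fold change of 0.77 ± 0.07 (edgeR, adjusted p = 2.31e-06). Of the other genes of H3.3 deposition, CABIN1 and ATRX were higher, HIRA and DAXX were lower, and UBN2 did not pass.

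On a list of 36 S phase genes, all tested, 1 was higher and 26 lower, with a median log2 fold change of -0.49. This was 75.0% called, against 48.8% of all tested genes, of which 24.3% were lower. The list summed to 2152 ± 126 CPM for siCtrl against 1543 ± 32.6 CPM for siDDX17 (SD, n = 3). CDC6, CDC45 and CCNA2, which act in loading and firing of replication origins and in S phase entry, fell by 0.96, 0.92 and 0.87 on the log2 scale. Replication-dependent histone mRNAs are made in S phase. The part of S phase in the values of the clustered genes was not tested.

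**Figure D5:**
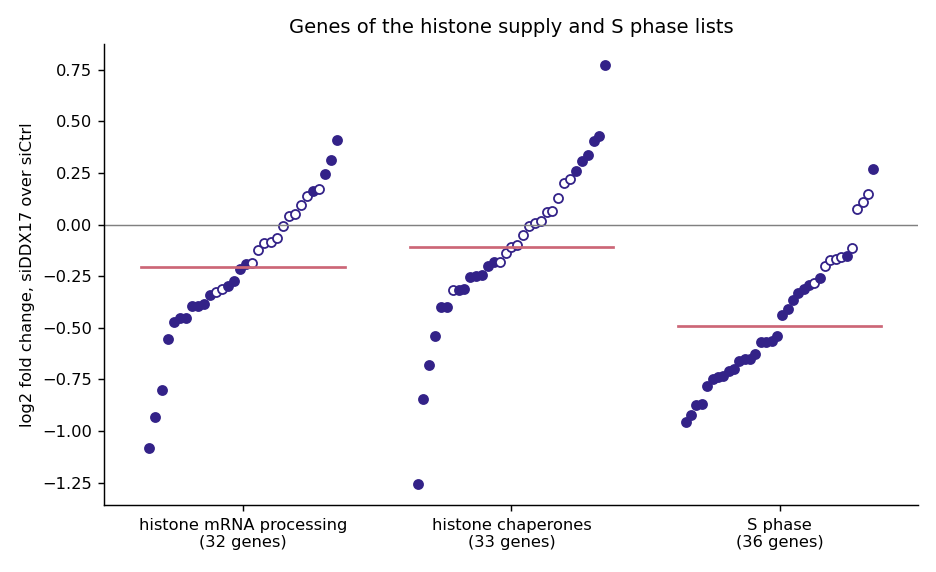
Log2 fold change (siDDX17 over siCtrl) of each gene of the 3 lists, in order within each list, with a line at the list median. Filled points passed an adjusted p of 0.05. The medians are -0.20, -0.11 and -0.49, and the S phase list has the fewest points above 0.

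The FPKM of a clustered gene depends on which transcript length was used to make it. The lengths implied by the deposited counts and FPKM were 397 bases for HIST1H2BK and 414 for HIST1H4H, close to their coding lengths of 378 and 309, but 1724 for HIST1H2AC and 5731 for HIST1H2BN, whose coding lengths are 390 and 378. HIST1H2BK and HIST1H4H were classed above with an extension. HIST1H2AG was classed without one, but its implied length was 2355 bases. The split by extension thus need not match the annotation behind the counts. HIST1H2BK was at 48.2 FPKM in siCtrl and HIST1H2AC at 8.84, while their CPM were 20.0 and 15.9. Levels of clustered genes are therefore given here in CPM or reads, and the shares and ratios of reads between clustered genes are not corrected for length.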

How the data were processed

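Polyadenylated RNA of A549 cells was sequenced from 3 siCtrl and 3 siDDX17 cultures. Per the study's methods and labels, reads were trimmed and aligned by the authors to GRCh38 (TopHat2), and only unique alignments were kept. The authors deposited raw counts per gene and FPKM values rounded to 2 decimals. The counting program, annotation and use of strand are not given in the sources used here, so genes that overlap, lie antisense or have close copies have uncertain counts.

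Counts of the whole table were tested with edgeR 4.0.16 (R 4.3.3, TMM scaling, expression filter, quasi-likelihood test, Benjamini-Hochberg adjustment over 15615 genes), which was tested on simulated data. DESeq2 1.42.0 and limma 3.58.1 on log2(FPKM + 1) and log2(FPKM + 0.1) served as alternatives. In the sums, members were added as CPM. Sequences came from GENCODE 44, RefSeq and the GRCh38 genome. All 72 members were matched, 69 by gene identifier and 3 by an older symbol. The windows tested for uniqueness had the authors' read length of 150 bases.

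The members and gene lists were chosen with earlier results of these data known. Named genes were every member with an adjusted p under 0.05 whose absolute log2 fold change was above 1, the 12 most abundant clustered genes, every tested variant gene, DDX17, SLBP, NPAT, CENPA, and the 3 genes of each list with the largest change. The depth was 30658136 to 39182371 reads per library, and the values of members with few reads carry a counting error that limits them.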

Additional observations from a re-analysis of the deposited data

How the results depend on the processing

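Of the named genes, all 10 variant genes kept their direction, except H2AFY, under each of the alternatives run, and the 6 lower and 2 higher calls at an adjusted p of 0.05 held, except that H2AFZ missed under limma on log2(FPKM + 1) without a filter (adjusted p = 0.0507). The limits of the study's methods left 4 of the 6 lower, and the fold limit 2 lower and 1 higher. The low-count clustered genes were less stable. The 9 clustered genes called lower became 4 with library size only, 4 with at least 10 counts in every library, 4 with limma on log2(FPKM + 1) and no filter, 5 with an absolute log2 fold change over 1 and 5 with the limits of the study's methods (p under 0.01 and a fold of 1.5). With a library left out they were 3 to 11, with 5 without siCtrl 2 and 3 without siDDX17 1, and the 3 called higher stayed 3. The counts of variant genes were 6 to 7 lower and 2 higher.

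The replicate numbers did not pair the samples, since the correlations of same-numbered deviations were 0.022, 0.074 and -0.099. With the number as a replicate block, 7 clustered genes were lower and 3 higher, 6 variant genes were lower and 2 higher, and HIST1H3B (adjusted p = 0.0637) and HIST1H2BL (adjusted p = 0.0598) were lost in edgeR.

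Scaling by library size only moved the median log2 fold change of all tested genes from 0.01 to 0.13, and the share of calls that were higher from 50.1% to 67.7%. Under limma on FPKM that share was 68.7%. The log2 ratio of the summed clustered genes went from -0.12 to 0.0031 with library size only and 0.0055 in FPKM. That of the summed variant genes went from -0.51 to -0.39 with library size only, -0.24 in FPKM and -0.28 without H3F3B. With a library left out these ratios ranged from -0.15 to -0.093 and from -0.53 to -0.50.

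Directions turned where the estimates lay near 0. With library size only, HIST1H1C was at 0.077, HIST1H2BK at 0.0051, HIST1H2AG at 0.012 and H2AFY at 0.00020 on the log2 scale. With limma on log2(FPKM + 1), with or without the filter, they were at 0.082, 0.013, 0.0019 and 0.0059, and NPAT at 0.0038. With limma on log2(FPKM + 0.1) the 5 genes were at 0.084, 0.013, 0.010, 0.0060 and 0.011. With a library left out, HIST2H4B ranged from -0.52 to 0.043 (above 0 without siCtrl 1), HIST1H2BJ from -0.045 to 0.41 (below 0 without siCtrl 2) and NPAT from -0.22 to 0.033 (above 0 without siCtrl 1, and at 0.019 without siDDX17 3). The cause was not tested.

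The counts of the lists moved in both directions. The 4 higher genes of the histone mRNA processing list were 2 by DESeq2, 9 with library size only, 2 with no low-count filter, 8 and 8 with limma on log2(FPKM + 1) and log2(FPKM + 0.1), 2 to 4 with a library left out, and 0 by edgeR with the fold limit or the methods' limits, against 5 at an unadjusted p under 0.05. Its 15 lower genes were 13 to 18 with a library left out, 1 with the fold limit and 3 with the methods' limits. The 6 higher chaperone genes were 11 with library size only, 11 and 11 with limma, 5 to 9 with a library left out, 0 with the fold limit and 1 with the methods' limits. The 13 lower ones were 6 with limma and no filter, 11 to 15 with a library left out, 1 with the fold limit and 3 with the methods' limits. The 26 lower S phase genes were 22 to 32 with a library left out, 0 with the fold limit and 13 with the methods' limits. The 1 higher one was 0 by DESeq2, 4 with library size only, 4 in each limma setting, 0 to 1 with a library left out (0 without siCtrl 1, siDDX17 1 or siDDX17 2) and 0 with the fold limit or the methods' limits, against 2 at an unadjusted p under 0.05. The 3 higher and 2 higher clustered and variant genes were 0 and 1 with the fold limit, and the 6 lower variant genes were 2.

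Depth limits the clustered genes most: 30 of 59 were not tested, and those called lower past the fold limit held 60 to 156 reads over all libraries.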
